A study of Mus musculus with 8 samples.

Results

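Def6, which encodes a signalling adaptor best known in lymphocytes, was deleted in the mice studied here, and the genes described below are its neighbours on chromosome 17. The 41 members are a list of named genes chosen by position among 24421 genes in the files, and the list does not hold every gene of this stretch. All 41 lie within 5 Mb of Def6 in mm10 (GRCm38). 16 lie to the left, as far as 1.27 Mb from Def6 (-1.27 Mb in the plot), and 25 lie to the right, as far as 2.40 Mb. 33 members were abundant enough to be tested, and 8 were not.

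Poly-A RNA of calvarial osteoblastic cells, isolated from newborn C57BL/6 mice, was sequenced in 8 libraries. The groups were WT cells and Def6-/- cells, each at day 0 and at day 12 of culture in medium with ascorbic acid and β-glycerophosphate, the standard supplements that drive osteoblasts to form and mineralise matrix. Each group had 2 libraries. The Def6-/- mice had been backcrossed many times to C57BL/6, and their WT littermates served as controls. The strain in which the allele was made is not stated. The paper cites the earlier report of this line for mice on a mixed background of C57BL/6 and another strain. The libraries of a group are described as biological replicates, but no source used here says whether they came from separate animals or cultures. The p-values measure only the spread between these libraries.

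Genes on the same chromosome are inherited together when they lie close, so the neighbours of a targeted gene stay with it through many rounds of backcrossing. Neighbours can also share regulatory DNA with the targeted gene. The comparison therefore asked which neighbours differed between Def6-/- and WT cells, and whether they did so at both days. DNA was not measured, and these 2 routes cannot be told apart here.

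Between 2414856 and 3482837 reads fell on genes in a library, which was 28.8% to 35.3% of all its reads. All 8 osteoblast markers examined averaged at least 1 deposited CPM in at least 1 group, although Bglap, a marker of mature osteoblasts, was at 0 in every day 0 library. None of the 4 endothelial markers had such an average in any group, but Kdr reached 3.16 and Cdh5 4.61 normalised CPM in single libraries. All 4 cartilage markers had one, and they summed to 1108 to 3827 normalised CPM in a library. Of 7 adipocyte markers 6 had one. Their sum was 36.9 to 47.0 at day 0, and 311 and 334 in WT and 427 and 439 in Def6-/- cells at day 12. Of 4 skeletal muscle markers 1 had one. Macrophage markers are described below. The library WT day 0 replicate 1 stood apart from the rest. Its log2 levels correlated with those of the other WT day 0 library at 0.927 (Pearson, across genes, which are not independent replicates), against 0.975 to 0.978 for the replicates of the other groups.

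Def6 itself was the check of the genotype labels. In WT cells 147 and 112 reads fell on it before osteogenic culture and 186 and 137 after, whereas in Def6-/- cells these counts were 0 and 1 before and 2 and 2 after. After scaling, summed Def6 reads were 270 times as high in WT cells at day 0 (lower 95% bound 48.1, counting error only) and 65.7 times as high at day 12 (25.4 to 243). Every library matched the genotype in its label. Def6 reads could not check the day or the replicate.

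3 members at the far right of the region stood higher in Def6-/- cells: Btbd9, Glo1 and Dnah8. They are the last 3 members in their order along the chromosome, they follow each other directly, and they span 660 kb from the start of Btbd9 to the end of Dnah8. Btbd9 lies at chr17:30215524-30582621, Glo1 at chr17:30592861-30612659 and Dnah8 at chr17:30626935-30875762. Their RNA was higher in both Def6-/- libraries than in both WT libraries at each day. That pattern held for 2.51% of the 12348 genes tested and for 3 of the 33 members. The start sites of Glo1 and Dnah8 lie 14.3 kb apart and point away from each other.

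The promoters of these adjacent genes are shown because both genes were higher in Def6-/- cells. Each sequence is the RefSeq window of GRCm38.p6 from 250 bases before to 50 bases after the annotated start, read 5′ to 3′ on the gene's strand. Glo1 is on the minus strand (chr17:30612610-30612909) and Dnah8 on the plus strand (chr17:30626686-30626985). Capitals mark GGGCGG, the GC box bound by Sp factors, and CCAAT, the core of the CCAAT box, on either strand. No match overlapped another.
Glo1: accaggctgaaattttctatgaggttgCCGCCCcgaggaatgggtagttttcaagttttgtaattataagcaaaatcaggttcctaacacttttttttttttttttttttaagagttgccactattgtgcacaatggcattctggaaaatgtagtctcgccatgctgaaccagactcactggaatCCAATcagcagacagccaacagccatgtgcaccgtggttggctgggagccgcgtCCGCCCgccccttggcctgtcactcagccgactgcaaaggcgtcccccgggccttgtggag
Dnah8: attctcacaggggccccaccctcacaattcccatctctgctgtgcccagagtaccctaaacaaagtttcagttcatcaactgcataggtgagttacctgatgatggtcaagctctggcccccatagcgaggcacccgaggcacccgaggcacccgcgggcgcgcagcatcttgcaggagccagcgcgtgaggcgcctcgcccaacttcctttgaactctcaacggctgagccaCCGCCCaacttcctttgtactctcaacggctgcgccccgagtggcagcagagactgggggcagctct

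The Glo1 window held 2 matches to GGGCGG and 1 to CCAAT, and the Dnah8 window held 1 match to GGGCGG. Neither window held TATAAA, the TATA box. Of 32851 promoter windows in the table, 35.7% held GGGCGG, 37.4% CCAAT and 13.6% TATAAA. The Glo1 window was 49.7% G and C, and that of Dnah8 60.3%, against a median of 52.7%. The 2 windows thus had GGGCGG in common, a match that is frequent among all promoters.

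Glo1 encodes glyoxalase I, which with glutathione detoxifies methylglyoxal, a reactive by-product of glycolysis. It is also known in mice as a gene whose copy number varies among inbred strains, and copy number was not measured here. At day 0 Glo1 stood at 65.9 and 42.8 normalised CPM in the WT libraries (54.3 ± 16.4, mean ± SD, n = 2) and at 100.1 and 85.8 in the Def6-/- libraries (92.9 ± 10.1, n = 2). At day 12 it stood at 41.9 and 36.4 in WT (39.2 ± 3.87, n = 2) and at 85.0 and 97.8 in Def6-/- cells (91.4 ± 9.03, n = 2). The groups did not overlap at either day, and the Def6-/- level was much the same at both days.

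A member was called where the unadjusted p of limma was under 0.05 and the difference over 1.2-fold, the rule of the study. By this rule 2.3% of all tested genes were called at day 0 (0.988% were higher with Def6 deleted and 1.31% lower), 1.4% at day 12 (0.81% higher and 0.591% lower) and 2.25% over the mean of both days (1.12% higher and 1.13% lower). Of the called genes, 43% were the higher ones at day 0, 57.8% at day 12 and 49.6% over both days, and these shares were 72.3%, 70% and 74.8% with CPM as deposited. Glo1 was called in all 3 comparisons. It was higher in Def6-/- cells by 0.79 on the log2(CPM + 1) scale at day 0 (SE 0.24, 95% interval 0.25 to 1.33) and by 1.201 at day 12 (SE 0.24, interval 0.66 to 1.74). Over both days it was higher by 0.997 (SE 0.17, interval 0.61 to 1.38), and only Def6 had a smaller p among the 12348 genes. Adjusted over all genes, the p of Glo1 was 0.91 at day 0, 1 at day 12 and 0.98 over both days, so that no member passed an adjusted p of 0.05 in a comparison of genotypes. Def6 alone did so in each, which is 0.0081% of the genes.

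17 of the tested genes, 0.138%, were called at both days in the same direction, and Glo1 was the only member among them. 9 of the 17 lie on chromosome 17, Def6 included. With Def6 left out, these were 8 of 587 tested genes there (1.36%), against 8 of 11728 on the other chromosomes (0.0682%). Of these 8 on chromosome 17, 3 lie within 5 Mb of Def6, 4 between 5 and 20 Mb and 1 beyond 20 Mb. The Glo1 difference at day 0 was no longer called without Def6-/- day 0 replicate 1 (0.68). Without WT day 0 replicate 1 it was larger, at 1.102, and without WT day 0 replicate 2 it was smaller, at 0.49. It was called in both cases. The difference over both days was called under all 16 alternatives, between 0.84 and 1.15.

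Btbd9 encodes a BTB-domain adaptor that is known from genetic studies of restless legs syndrome. Its levels were 28.4 and 32.5 normalised CPM in WT cells and 39.5 and 41.9 in Def6-/- cells at day 0, and 26.1 and 26.8 in WT and 47.2 and 44.4 in Def6-/- cells at day 12. The 4 Def6-/- libraries were all above the 4 WT libraries. The difference was called at day 12 (0.77, SE 0.20, adjusted p = 1) and over both days (0.59, SE 0.14, adjusted p = 0.98). At day 0 it was 0.41 (interval -0.04 to 0.85) and not called.

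Dnah8 encodes an axonemal dynein heavy chain of sperm flagella and was near the lower limit of what the libraries could show. At day 0 it had 6 and 12 reads in WT and 13 and 16 in Def6-/- cells, and at day 12 it had 41 and 23 in WT and 46 and 72 in Def6-/- cells. In normalised CPM, WT cells stood at 2.37 and 4.24 at day 0 and at 11.8 and 9.63 at day 12. Def6-/- cells stood at 4.89 and 5.45 at day 0 and at 18.9 and 30.7 at day 12. The order of the genotypes was the same at both days, and the gap in CPM was wider at day 12.

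The Dnah8 difference was called at day 12 (1.11, SE 0.35, adjusted p = 1) and over both days (0.83, SE 0.25, adjusted p = 0.98). At day 0 it was 0.55 (interval -0.24 to 1.35) and not called. That value was 0.24 without WT day 0 replicate 1, and 0.87 and called without WT day 0 replicate 2. The day 12 difference was no longer called without WT day 12 replicate 2 (0.98) or without Def6-/- day 12 replicate 2 (0.77). The difference over both days was called under all 16 alternatives, for Dnah8 between 0.66 and 0.9995 and for Btbd9 between 0.54 and 0.66.

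The next tested member to the left did not share this pattern. Zfand3, a zinc finger protein gene that ends 4.7 kb before Btbd9, differed by -0.02 over both days (95% interval -0.34 to 0.30). All 3 genes share annotated exon bases with noncoding genes. Btbd9 shares 1255 bases with a noncoding gene on its own strand and 189 with an antisense gene. Glo1 shares 418 bases with an unclassified gene and 214 with a processed pseudogene, both on the opposite strand, and 90 with a noncoding gene on its own strand. Dnah8 shares 443 and 207 bases with 2 noncoding genes on the opposite strand. The strand setting of the counting is not given in the sources used here, so reads from such partners cannot be told apart.

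**Figure D1:**
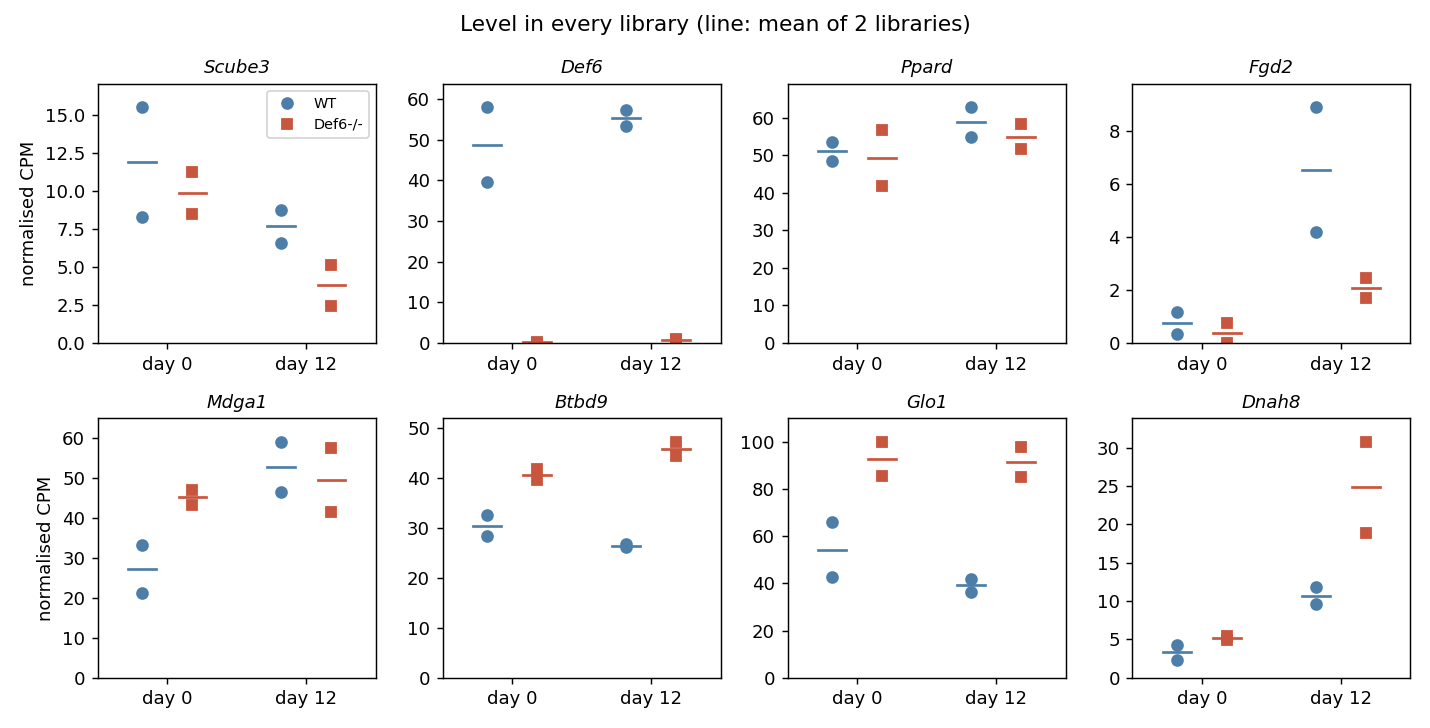
Normalised CPM (linear axis from 0) of 8 genes in each library at day 0 and day 12, with WT as circles, Def6-/- as squares and a line at the mean of 2 libraries. Def6 is near 0 in Def6-/- cells, its neighbours Scube3 and Ppard are not, and Btbd9, Glo1 and Dnah8 are higher in Def6-/- cells at each day.

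The members nearest to Def6 on each side were not called. Ppard encodes PPAR delta, a nuclear receptor that drives fatty acid oxidation, and starts 4.1 kb after Def6. It stood at 48.5 and 53.7 normalised CPM in WT and at 56.8 and 41.9 in Def6-/- cells at day 0, and at 62.9 and 54.9 in WT and 58.3 and 51.7 in Def6-/- cells at day 12. The groups overlapped at both days. Over both days the difference was -0.08 (95% interval -0.42 to 0.26), and its sign changed with CPM as deposited (0.03).

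Scube3 encodes a secreted protein with EGF and CUB domains that is known to act on growth factor signalling in bone. It ends 32.6 kb before Def6. Zfp523, a tested zinc finger gene that is no member, lies between them and was not called (0.11 over both days, SE 0.17). Scube3 stood at 8.29 and 15.5 normalised CPM in WT and at 11.3 and 8.51 in Def6-/- cells at day 0, and at 6.60 and 8.79 in WT and 2.46 and 5.12 in Def6-/- cells at day 12. The groups overlapped at day 0 and not at day 12. The difference at day 12 was -0.91 (SE 0.41, interval -1.83 to 0.01), which did not pass the rule. It was called under 6 of 17 alternatives: without either WT day 0 library, without Def6-/- day 12 replicate 2, with the replicate block, with a pseudocount of 0.1 and with only the libraries of that day. With 1 library left out it ran from -1.32 to -0.50. Over both days it was -0.55 and not called, and without WT day 0 replicate 1 it was -0.76 and called.

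2 other members were called at 1 day. Mdga1 encodes a membrane-anchored glycoprotein known for its part at synapses. It stood at 21.3 and 33.2 normalised CPM in WT and at 47.0 and 43.3 in Def6-/- cells at day 0, and at 46.5 and 59.0 in WT and 41.5 and 57.6 in Def6-/- cells at day 12. Only the day 0 libraries were apart. Mdga1 was higher in Def6-/- cells by 0.74 at day 0 (SE 0.27, adjusted p = 0.91). The difference was 0.43 and no longer called without WT day 0 replicate 1. The call was also lost without Def6-/- day 0 replicate 1 (0.68) and without Def6-/- day 0 replicate 2 (0.80).

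Fgd2, a signalling gene known from antigen-presenting cells, was the 1 member called as lower in Def6-/- cells. It reached the filter mean of 1 deposited CPM only in WT cells at day 12, the group where it was highest. Its test therefore rested on that group. Before osteogenic culture 3 and 1 reads fell on it in WT and 2 and 0 in Def6-/- cells, and afterwards 31 and 10 in WT and 6 and 4 in Def6-/- cells. The day 12 libraries did not overlap, at 8.90 and 4.19 normalised CPM in WT and 2.46 and 1.71 in Def6-/- cells. Fgd2 was lower in Def6-/- than in WT cells by 1.23 on the log2 scale at day 12 (SE 0.49, adjusted p = 1). Over both days it was lower by 0.80 (SE 0.34, adjusted p = 0.98). The day 12 call was kept under 11 of 17 alternatives. The call over both days was lost under 10 of 16 alternatives, among them without WT day 0 replicate 1 (-0.63). Without WT day 12 replicate 1, the library with 31 of the 57 reads, the day 12 difference was -0.76 and not called.

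Macrophage markers moved with culture too. 15 of 16 listed macrophage markers had usable values, all 15 reached 1 CPM in a group and none was at 0 in every library. Their summed level was 211.1 to 449.5 normalised CPM over the 4 day 0 libraries. At day 12 it was 6789 and 3464 in WT and 4237 and 3794 in Def6-/- cells, in replicate order. The WT library with most Fgd2 was also the one with the highest macrophage sum. The other WT day 12 library had the lowest sum of that day, and its Fgd2 (4.19 normalised CPM) was above both Def6-/- libraries (2.46 and 1.71). The part of these cells in the Fgd2 difference was not tested. In bulk RNA, fewer cells of a type and less RNA per cell cannot be told apart.

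**Figure D2:**
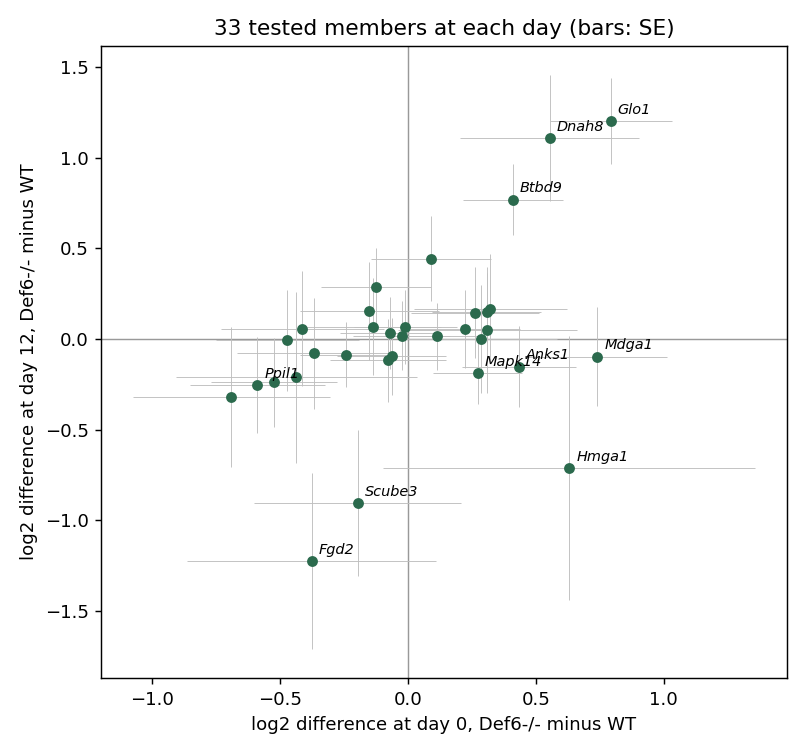
Log2 difference between Def6-/- and WT cells at day 0 (x axis) and at day 12 (y axis) for the 33 tested members, with the SE as bars. Glo1, Dnah8 and Btbd9 lie to the upper right, Fgd2 and Scube3 below, and most other members around 0.

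Counted over the list, 2 of 33 members were called at day 0, both higher, beside 2.3% of all genes. At day 12, 4 were called, 3 of them higher, beside 1.4% of all genes. Over both days 4 were called, again 3 higher, beside 2.25% of all genes. Without WT day 0 replicate 2, which leaves the library that stood apart as the 1 WT sample of that day, 17 members were called at day 0 and 15 over both days, and 37% of all genes were called at day 0. Without Def6-/- day 0 replicate 1, 0 members were called at day 0. The median difference of the members was -0.02 at day 0, 0.01 at day 12 and 0.00 over both days, beside medians of -0.02, -0.00 and -0.01 for all genes tested. 21 of the 33 members, 63.6%, had the same sign at both days, beside 54.8% of all genes. The median of the list was therefore close to that of all genes. The 3 members called as higher at day 12 and over both days were the adjacent Btbd9, Glo1 and Dnah8.

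Non-overlap was common at this size of group. At day 0 the 2 genotypes did not overlap for 13 of 33 members and 22.6% of all genes, and at day 12 for 13 members and 32.7% of all genes. 2 members were lower in both Def6-/- libraries at each day, a pattern of 2.35% of all genes. These were Ppil1, a prolyl isomerase of the spliceosome, and Cdkn1a, which encodes the cell cycle inhibitor p21. With CPM as deposited, neither kept that pattern, while Btbd9, Glo1 and Dnah8 kept theirs.

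Ppil1 had 33.5 and 21.6 normalised CPM in WT and 18.8 and 16.3 in Def6-/- cells at day 0, and 23.0 and 21.4 in WT and 18.9 and 17.9 in Def6-/- cells at day 12. The difference over both days was -0.42 (SE 0.19, interval -0.85 to 0.00) and just missed the rule. It was called over both days under 5 alternatives, and without WT day 0 replicate 1 it was -0.27 and not called. The highest Ppil1 value was in that library.

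By role, 9 of 12 members of the kinase and signalling group were tested, and Fgd2 alone was called. The kinases Mapk13, Srpk1, Stk38 and Pim1, the calcium channel Itpr3 and the Rab regulator Tbc1d22b ranged from -0.69 to 0.31 at day 0 and from -0.32 to 0.44 at day 12. Itpr3 had the highest value at day 12 and was called there without either WT day 0 library. Mapk14, the p38 alpha kinase of the stress response, had 68.3 and 78.4 normalised CPM in WT and 92.2 and 85.1 in Def6-/- cells at day 0, and 80.1 and 86.3 in WT and 71.4 and 74.3 in Def6-/- cells at day 12. The libraries were apart at both days, in opposite directions, as they were for Anks1, an ankyrin repeat adaptor. Such a pattern was seen in 2.92% of all genes. The test of the difference between days gave -0.46 for Mapk14 (SE 0.25) and -0.59 for Anks1 (SE 0.31), neither of them called, and with CPM as deposited neither was apart at both days.

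Across all 33 members the difference between the genotypes was not called as unlike between days for any gene (limma, unadjusted p under 0.05 for 0 members). 1.12% of all tested genes passed that threshold, 138 in number, and edgeR gave 143 genes and DESeq2 45, likewise with 0 members. Without WT day 0 replicate 1 or without Def6-/- day 0 replicate 2, 1 member (Hmga1) was called, and without Def6-/- day 12 replicate 2, 1 member (Mdga1). A total of 8 members and 26.9% of all genes were called without WT day 0 replicate 2, with Glo1 at 0.72. For Glo1 the interaction was 0.41 (SE 0.34), for Btbd9 0.36 (SE 0.28) and for Dnah8 0.56 (SE 0.49). Mdga1 came nearest, at -0.84 (SE 0.39, interval -1.71 to 0.04). The intervals of Glo1 (-0.36 to 1.18), Btbd9 (-0.27 to 0.99) and Dnah8 (-0.57 to 1.68) leave room for a larger or a smaller difference at day 12.

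None of the 6 members that act in transcription and chromatin was called. They were Ppard, the Hippo pathway factor Tead3, the chromatin proteins Hmga1, Brpf3 and Phf1, and Taf11, a subunit of TFIID. Their differences ran from -0.52 to 0.63 at day 0 and from -0.71 to 0.29 at day 12. Both the highest value at day 0 and the lowest at day 12 were those of Hmga1, an architectural DNA-binding protein with 2 to 29 reads per library. Its mean reached the filter of 1 deposited CPM only in Def6-/- cells at day 0.

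The 4 members of DNA repair, the cell cycle and cell death were Fance of the Fanconi pathway, the ubiquitin ligase Rnf8, Cdkn1a and the pore-forming Bak1. None was called, and their differences ran from -0.44 to -0.02 at day 0 and from -0.21 to 0.07 at day 12. Of the metabolic, chaperone and mitochondrial members, Glo1 was called and Nudt3, Fkbp5, Mtch1 and Cuta were not. Nudt3, which hydrolyses inositol pyrophosphates, showed the library that stood apart: it had 206 normalised CPM in WT day 0 replicate 1 and 105 to 113 in the other libraries. Lemd2 of the inner nuclear membrane (-0.08 at day 0 and -0.12 at day 12), Uhrf1bp1, a lipid transfer protein (0.32 and 0.17), and Snrpc, a protein of the U1 snRNP (-0.41 and 0.06), were not called either.

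The members also differed in how much RNA they gave. Per kb of exon, Cdkn1a had the highest level in WT cells at day 0 (264 normalised CPM per kb), followed by Mtch1, a mitochondrial outer membrane protein (62.3), and Bak1 (45.8). Glo1 had 4.49, Btbd9 1.67 and Dnah8 0.12 on that scale. The length was that of all annotated exons of a gene joined, which can exceed the length of its RNA. It was 12.1 kb for Glo1, 18.2 kb for Btbd9 and 26.82 kb for Dnah8, against 2.41 kb for Bak1. Counts of overlapping genes are uncertain. Phf1 and Cuta, which lie on opposite strands, share 1370 exon bases, and Taf11 and Anks1 share 341.

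8 members fell below the filter of 1 CPM in at least 1 group. Tulp1, Tcp11, Pacsin1, Cpne5 and Grm4, best known from retina, testis or brain, had 0 to 5 reads in a library. Ip6k3 had 2 to 4. Cmtr1, the cap methyltransferase, had 4 to 9, and its exons share 3390 bases with a readthrough gene on the same strand and 4584 with a gene on the opposite strand. Pi16, which encodes a secreted protein of fibroblasts, had 0 and 1 reads in WT and 8 and 3 in Def6-/- cells at day 0, and 0 and 1 in WT and 3 and 3 in Def6-/- cells at day 12. The ratio of scaled reads was 10.5 at day 0 (1.53 to 454, counting error only) and 7.37 at day 12 (0.90 to 339), so that the interval lay above 1 at day 0 and not at day 12. Each ratio rests on 1 read in WT cells.

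**Figure D3:**
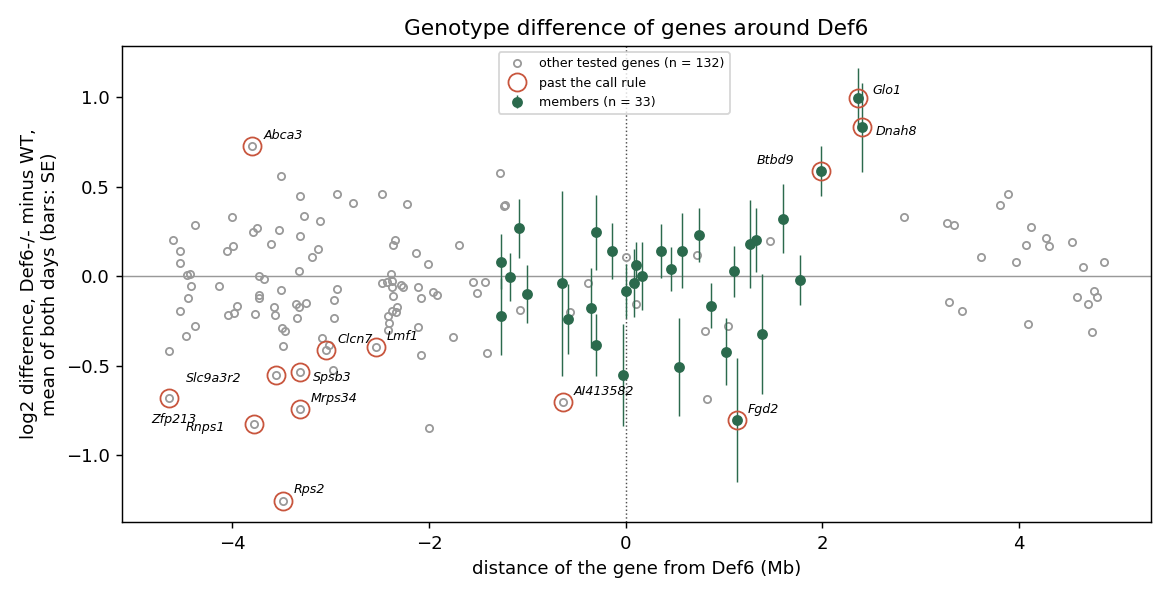
Log2 difference between Def6-/- and WT cells, mean of both days, against the distance of each tested gene from Def6 (Mb), with the 33 members filled (bars, SE), the 132 other tested genes open, and called genes ringed and named. Beside Def6, Ppard lies near 0 and Scube3 at -0.55, called members lie to the right, and called genes that are no members lie to the left.

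The members are not all the genes of this stretch. 165 tested genes lie within 5 Mb of Def6, Def6 left out. 14 of them, 8.48%, were called over both days, against 2.07% of genes on the other chromosomes. Within 1 Mb it was 1 of 25 genes, between 5 and 20 Mb 16 of 234 (6.84%), and beyond 20 Mb on the same chromosome 2 of 188 (1.06%). Without WT day 0 replicate 1, 21 of the 165 (12.7%) were called, beside 4.08% of all genes. These shares were not tested, and neighbouring genes are not independent.

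10 of the 14 genes are not members. All 10 lie to the left of Def6, and 9 of the 10 were lower in Def6-/- cells. 8 of these 9 lie between -2.545 and -4.643 Mb, beyond the leftmost member. They were Zfp213, Rnps1, Slc9a3r2, Rps2, Spsb3, Mrps34, Clcn7 and Lmf1, with differences over both days from -1.25 to -0.40. The ninth was AI413582 at -0.642 Mb, inside the stretch of the members. It shares 102 exon bases with Hmga1, on the opposite strand. Abca3, at -3.797 Mb, was higher, by 0.73. Rps2, which encodes a ribosomal protein, had the largest difference of the 10, and both Rps2 (-1.42 at day 0 and -1.08 at day 12) and the splicing factor Rnps1 (-0.93 and -0.72) were called at both days. The day 0 difference was -0.84 for Rps2 and -0.77 for Rnps1 without WT day 0 replicate 1, and both were still called.

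With culture in osteogenic medium, the members changed about as often as all genes did in WT cells. At day 12 against day 0, 6 of 33 passed an adjusted p of 0.05, beside 18.3% of all genes (12.7% rose and 5.63% fell). Fgd2, Dnah8 and Mdga1 rose, and Fkbp5, Itpr3 and Cdkn1a fell. Fgd2 was tested only because its WT day 12 mean reached the filter. The rises were 2.06 for Fgd2 (SE 0.49, adjusted p = 0.020), 1.47 for Dnah8 (SE 0.35, adjusted p = 0.020) and 0.95 for Mdga1 (SE 0.27, adjusted p = 0.042). The Mdga1 rise was 0.65 and did not pass without WT day 0 replicate 1.

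Fkbp5, a co-chaperone of steroid receptors induced by glucocorticoids, fell by 1.17 (SE 0.27, adjusted p = 0.018). Its WT libraries went from 18.5 and 26.5 normalised CPM at day 0 to 10.3 and 8.38 at day 12. Itpr3, a calcium channel of the endoplasmic reticulum, fell by 0.94 (SE 0.23, adjusted p = 0.025), from 51.3 and 70.0 to 34.2 and 27.6. Cdkn1a fell by 0.80 (SE 0.18, adjusted p = 0.015), and its libraries went from 1041 and 833 to 529 and 541. The 2 days did not overlap for any of the 3.

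In Def6-/- cells 2 members passed, beside 16.8% of all genes (12% rose and 4.79% fell). Dnah8 rose by 2.03 (SE 0.35, adjusted p = 0.00470) and Cdkn1a fell by 0.64 (SE 0.18, adjusted p = 0.039). Mdga1 changed by 0.11 (SE 0.27, adjusted p = 0.83), Fkbp5 by -0.86 (SE 0.27, adjusted p = 0.062), Itpr3 by -0.59 (SE 0.23, adjusted p = 0.13) and Fgd2 by 1.21 (SE 0.49, adjusted p = 0.13). The changes in the 2 genotypes were not called as different for any member. These counts moved with single libraries, as the shares of all genes did. In WT cells 13 members and 46.1% of all genes passed without WT day 0 replicate 2, 0 members and 6.76% without WT day 12 replicate 1, and 1 member (Fgd2) and 8.07% without WT day 12 replicate 2. In Def6-/- cells 12 members and 34.7% of all genes passed without WT day 0 replicate 1, and 11 members and 34.8% without WT day 0 replicate 2, although neither library is in that comparison and both enter it only through the shared spread. Without any 1 of the other libraries, 0 or 1 members and 7.5% to 12.6% of all genes passed there.

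**Figure D4:**
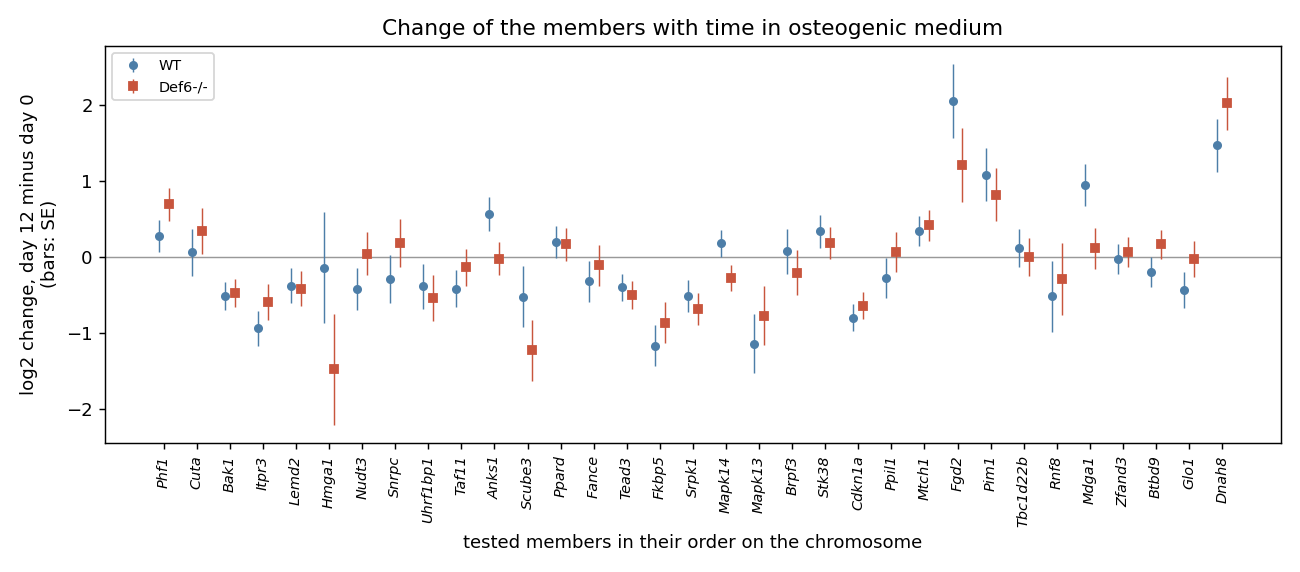
Log2 change from day 0 to day 12 in WT (circles) and Def6-/- cells (squares) for the 33 tested members in their order on the chromosome, with the SE as bars. Fgd2 and Dnah8 rise most in WT cells, Fkbp5 falls most among members that passed the test in WT, and the bars of Hmga1 are the widest.

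Listed partners of the members were not called between genotypes. Most lie elsewhere in the genome, but Hagh and Dusp1 lie within 5 Mb of Def6, at -3.343 and -1.699 Mb. Tested were genes of methylglyoxal detoxification (6 of 8 listed), the p38 pathway (12) and p53 targets (14). Glucocorticoid targets (8 of 10), PPAR delta targets (8) and YAP and TEAD targets (5 of 7 listed) were tested as well. Ccn1 and Ccn2 of the last list were not found under these symbols, and older names were not looked up. Of all these tested genes, 0 were called at day 0, at day 12 or over both days. The median of the methylglyoxal genes over both days was -0.22, beside -0.01 for all genes, and that of the p53 targets was -0.02. With culture in WT cells, 6 of 14 p53 targets fell and 0 rose, and 4 of 5 tested YAP and TEAD targets fell. Of the p38 pathway 3 fell and 1 rose. Of the other lists, 2 PPAR delta targets rose, 1 glucocorticoid target rose and 1 fell, and 1 methylglyoxal gene fell. Among all genes 12.7% rose and 5.63% fell. In Def6-/- cells 6 of 14 p53 targets and 5 of 5 tested YAP and TEAD targets fell. Of the p38 pathway 2 fell and 1 rose. There 2 PPAR delta targets and 1 glucocorticoid target rose, and 0 methylglyoxal genes were called. Among all genes 12% rose and 4.79% fell in these cells.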

How the data were processed

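Poly-A libraries were aligned by the authors to mm10 with HISAT2 and counted with HTSeq, after fastp per the submitters' processing notes. Versions, annotation and strand setting are not given in the sources used here. The deposited values are CPM made with edgeR, relative to all counted reads, those outside genes included. Whole reads were recovered from the value of 1 read in each library for 99.957% of positive values (tolerance 0.02 reads), and for all member values. Reads aligned to several places (21.4% to 34.9% of a library) and ambiguous reads (0.135% to 0.196%) entered no gene.

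The fit kept the 12348 genes whose group mean of deposited CPM reached 1 in any group. CPM were rescaled to gene reads with TMM factors (edgeR 4.0.16), called normalised CPM, and log2(CPM + 1) was fitted with limma 3.58.1 (lmFit, eBayes with trend, two-sided) in R 4.3.3, with 4 group means over all 8 libraries. Fold changes on this scale understate the change of low genes. DESeq2 1.42.0 and edgeR's quasi-likelihood test on recovered reads were alternatives. p-values were adjusted over all tested genes (Benjamini-Hochberg). The scripts were tested on simulated data.

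Positions are those of RefSeq for GRCm38.p6 (99.7% of tested genes), and exon lengths and overlaps those of GENCODE for the same build. Promoter windows were found for 37 of 41 members. Values are given per library for called members, Glo1, and the nearest tested member on each side of Def6. For time, the 3 largest rises and 3 largest falls past an adjusted p of 0.05 in WT are named. Ppil1, Cdkn1a, Mapk14, Anks1, Zfand3, Zfp523, Hmga1, Itpr3, Nudt3 and Pi16 were given values after these were seen. Members were listed by position, and they and the gene lists were drawn up with earlier results of these data known.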

Additional observations from a re-analysis of the deposited data

Results flagged for a closer look

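Mapk14 and Anks1 were marked because both Def6-/- libraries lay above both WT libraries at day 0 and below them at day 12. The interaction of genotype and day was -0.46 for Mapk14 (95% interval -1.02 to 0.10, limma, adjusted p = 1) and -0.59 for Anks1 (-1.30 to 0.13, adjusted p = 1), so that the difference between days did not pass the test for either. Without WT day 0 replicate 2 it did, at -0.56 for Mapk14 (unadjusted p under 0.05) and -0.75 for Anks1 (likewise).

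Pi16 was marked because it lies below the filter and its reads were higher in Def6-/- than in WT cells. The ratio of scaled reads was 10.5 at day 0 (11 reads against 1) and 7.37 at day 12 (6 reads against 1). With no filter on low genes, Pi16 was called at day 0, at day 12 and over both days.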

How the results depend on the processing

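The number of members called moved by over 1.5 times under 4 of 17 alternatives at day 0, 0 of 17 at day 12, 1 of 16 over both days, 5 of 16 for the interaction, 4 of 17 over time in WT and 10 of 17 over time in Def6-/- cells. With only the 4 libraries of day 0, 1 member and 0.514% of all genes were called there. With only the 4 libraries of day 12, 4 members were called as higher and 2 as lower, beside 4.64% of all genes. With only the 4 libraries of a genotype, 0 members and 8.99% of all genes were called over time in WT. In Def6-/- cells these were 10 members and 32.1%. With CPM as deposited, 1 member was called over time in Def6-/- cells, beside 14.1% of all genes. With the replicate block 1 member (Mdga1) was called for the interaction, beside 1.38% of all genes. The labels do not say that replicate numbers mark shared animals. Deviations of same-numbered libraries correlated between genotypes at 0.33 at day 0 and 0.04 at day 12. With the block 3 members were called at day 0, beside 2.92% of all genes. 5 were called at day 12, beside 1.64%, and 5 over both days, beside 2.66%. 1, 5 and 30 genes were called within 1, 2.5 and 20 Mb of Def6, against 14 within 5 Mb. When 1 library was left out, the counts were 0 to 17 members at day 0, 3 to 6 at day 12, 3 to 15 over both days, 0 to 8 for the interaction, 0 to 13 over time in WT and 0 to 12 in Def6-/- cells.

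The highest counts at day 0 (17), over both days (15), for the interaction (8) and over time in WT (13) came without WT day 0 replicate 2, which leaves the library that stood apart as the only WT day 0 sample, assumed to vary like the other groups; 37% of all genes were then called at day 0. The lowest at day 0 came without Def6-/- day 0 replicate 1. With CPM as deposited Ppard reversed to 0.075 at day 0 and 0.026 over both days. Leave-one-out values crossed 0 for Ppard (-0.28 to 0.15 at day 0, -0.19 to 0.027 over both days), Scube3 (-0.61 to 0.22 at day 0), Fgd2 (-0.78 to 0.026 at day 0) and Mdga1 (-0.33 to 0.13 at day 12, -0.12 to 0.34 over time in Def6-/- cells). The cause was not tested. At day 12 DESeq2 called 85 genes and limma 173. With 2 libraries per group, members of few reads such as Fgd2 and Dnah8 are limited by depth.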
